A study of Mus musculus with 4 samples.

Results

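The genes described here are the neurexins *Nrxn2* and *Nrxn3*, the neuroligins *Nlgn1*, *Nlgn2* and *Nlgn3*, and gephyrin, *Gphn*. They were chosen by symbol, and are 6 of the 32285 genes counted in each library. All were read in single cells of the forebrain at postnatal day 5. The control mice carried NestinCreERT2/tdTomato/Chd8+/+ and the mutant mice NestinCreERT2/tdTomato/Chd8+/F, on the C57BL/6 background, so that both genotypes carried the inducible Cre and the red reporter. Tamoxifen given to the dam at the midfetal stage activates the Cre in Nestin-positive progenitors. It switches on tdTomato in these cells and their progeny and, in the mutant, removes a loxP-flanked part of 1 *Chd8* allele, which encodes a chromatin remodeller. Sorted tdTomato-positive cells gave 4 libraries, a control and a mutant one numbered as replicate 1 and a control and a mutant one numbered as replicate 2. Each library was made from the pooled cells of 3 mice with the 10x Genomics 3′ chemistry, so that the spread between single mice could not be measured and the p-values below measure the spread between libraries.

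Neurexins are presynaptic adhesion proteins that bind neuroligins and other postsynaptic partners across the synaptic cleft. Neuroligin 1 is found mainly at excitatory synapses, neuroligin 2 mainly at inhibitory synapses and neuroligin 3 at both. Gephyrin is the scaffold that holds glycine and GABA-A receptors at inhibitory synapses, it binds neuroligin 2, and it also makes the molybdenum cofactor in cells of many tissues. Neuroligins are also made by astrocytes and by oligodendrocyte precursor cells (OPCs), the dividing glial cells that give rise to oligodendrocytes.

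The genes differ widely in size. In the mm10 build, *Nrxn3* lies at chr12:88722876-90334935 on the plus strand and holds 1599455 intronic bases, *Nlgn1* at chr3:25426215-26332460 on the minus strand holds 892824, and *Gphn* at chr12:78226379-78684772 on the plus strand holds 454645. *Nrxn2* at chr19:6418731-6544169 on the plus strand holds 111627 intronic bases. *Nlgn3* at chrX:101299168-101325963 on the plus strand holds 17525, and *Nlgn2* at chr11:69823122-69837784 on the minus strand holds 8878. *Nlgn1* overlaps *Gm37573* on the same strand, so that reads of the shared stretch cannot be told apart. The annotated coding transcripts of *Nrxn3* start at sites spread over 1017979 bases but end within 2525 bases of each other. A 3′ count therefore joins its long and short forms, and the values below are for the whole gene.

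The starts of 3 of these genes are shown because they belong to the gene whose level varied most across cell types (*Nrxn3*), the gene whose level varied least (*Gphn*) and the neuroligin gene with the fewest intronic bases (*Nlgn2*). Each sequence runs 5′ to 3′ from 250 bases before to 50 bases after a RefSeq start in GRCm38.p6. Capitals mark GGGCGG, the core of the GC box, on either strand, or CAGCTG, an E-box of the kind bound by bHLH factors. TAATTA, a homeodomain core that reads the same on both strands, was also searched and was in none of the 3, nor do the searched motifs overlap one another.
Nrxn3, internal start at chr12:89812233-89812532, plus strand: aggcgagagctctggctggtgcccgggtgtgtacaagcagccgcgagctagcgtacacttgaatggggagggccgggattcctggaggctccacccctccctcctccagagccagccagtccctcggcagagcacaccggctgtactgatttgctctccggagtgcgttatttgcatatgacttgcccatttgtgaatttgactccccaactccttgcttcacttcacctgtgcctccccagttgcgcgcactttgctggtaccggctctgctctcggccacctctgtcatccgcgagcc
Gphn, chr12:78226405-78226704, plus strand: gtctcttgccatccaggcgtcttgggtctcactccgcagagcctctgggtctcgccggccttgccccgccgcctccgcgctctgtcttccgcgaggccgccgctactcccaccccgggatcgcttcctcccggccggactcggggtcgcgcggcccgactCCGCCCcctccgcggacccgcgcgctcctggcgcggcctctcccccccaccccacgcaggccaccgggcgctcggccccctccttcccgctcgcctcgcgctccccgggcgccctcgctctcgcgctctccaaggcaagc
Nlgn2, chr11:69837735-69838034, minus strand: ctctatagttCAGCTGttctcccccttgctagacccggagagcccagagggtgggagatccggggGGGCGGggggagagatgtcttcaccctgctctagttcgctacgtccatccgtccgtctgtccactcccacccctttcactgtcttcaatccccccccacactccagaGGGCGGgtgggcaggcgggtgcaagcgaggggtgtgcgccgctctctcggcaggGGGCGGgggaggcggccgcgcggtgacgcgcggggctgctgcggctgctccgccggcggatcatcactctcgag

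The bases after the *Nrxn3* start shown occur in transcripts Nrxn3-202 and Nrxn3-203. Its window was 60.7% G and C and held none of the searched motifs. Of the *Nrxn3* windows not shown, chr12:88794254-88794553 held none of them and chr12:88953140-88953439 held 1 GGGCGG. The *Gphn* window was 77% G and C, with an observed over expected CpG ratio of 1.04 and 1 GGGCGG, on the reverse strand. The *Nlgn2* window was 68.7% G and C and held 1 CAGCTG and 3 GGGCGG. Across the 32851 promoter windows of the same length, the median content of G and C was 52.7% and the median CpG ratio 0.384. GGGCGG was in 35.7% of them, CAGCTG in 16.3% and TAATTA in 5.29%. A match describes letters in the window and was not tested as a binding site.

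After filtering, 17623 cells were kept, 2973 to 5710 per library, with a median of 11497 to 11838 unique molecular identifiers (UMIs, tags that each mark 1 captured transcript molecule) per cell. They fell into 32 clusters, of which 29 were named from marker genes, each name standing for a type like the one named and not for a proven identity. 14 of the 17 named types had at least 20 cells in every library and are described here. A level is given in CPM, the UMIs of a gene per 1000000 UMIs of the cells of that type in that library, so that less RNA of a gene per cell and fewer expressing cells cannot be told apart in it. The headers of the matrices named Cell Ranger 7.0.0 for both libraries of replicate 1 and 5.0.1 for both libraries of replicate 2. *Xist*, an RNA of the inactive X chromosome of female cells, was at 0.149 and 0.153 CPM in replicate 1 and at 1633 and 1749 CPM in replicate 2 (control, mutant), a difference that also went with the replicate number. The paper gives male mice for its single-cell data. The 61019 and 72238 *Xist* UMIs of replicate 2, against 11 in each library of replicate 1, show that replicate 2 held female cells, unlike that statement. How many of the pooled mice were female was not tested. *Chd8* was at 61.7 CPM in control and 68.7 CPM in mutant replicate 1, and at 89.8 and 94.9 CPM in replicate 2. The chemistry tags the 3′ end of transcripts while the deleted part is internal, and where in *Chd8* these UMIs lie was not measured, so these values do not check the labels. Cell barcodes shared by 2 libraries numbered 2 to 15 among those kept. The share of replicate 1 astrocytes in 1 cluster was 67.7% and that of replicate 2 astrocytes in another was 78.6%, so that values within astrocytes compare different clusters across replicates. Likewise the OPC cluster led by *Col19a1* held 353 of 637 control and 495 of 994 mutant OPCs in replicate 1, but 8 of 351 and 4 of 461 in replicate 2.

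The first feature of these genes was a difference between the replicates that depended on the gene. *Nrxn3*, *Nlgn1* and *Gphn*, the 3 with the most intronic sequence, were higher in replicate 1 than in replicate 2 in all 28 pairs of libraries (14 types, each within control and within mutant). The median fold was 15.7 for *Nrxn3* (8.40 to 110.2), 14.5 for *Nlgn1* (9.67 to 43.3) and 13.1 for *Gphn* (6.16 to 47.1). *Nrxn2*, *Nlgn2* and *Nlgn3* were lower in replicate 1 in 23, 23 and 25 of the 28 pairs, with median folds of 0.831, 0.756 and 0.698. Among their exceptions, *Nlgn3* in control pericytes measured 19.1 CPM in replicate 1 and 10.6 CPM in replicate 2, and *Nrxn2* in mutant committed oligodendrocytes was at 96.4 and 83.9 CPM. The pericyte values compare different clusters. The cluster led by *Acta2* and *Myh11* held 32 of 35 control pericytes in replicate 1, against 46 of 194 in replicate 2. In inhibitory neurons, *Nrxn3* was 12.3-fold higher in control replicate 1 than in control replicate 2, and 10.8-fold higher between the mutant libraries. *Nlgn1* was 12.1-fold and 9.87-fold higher there. *Gphn* was 15-fold higher among control and 15.1-fold higher among mutant libraries. Astrocytes gave similar values, at 11.4-fold and 14.5-fold for *Nrxn3*, 13.7-fold and 13.1-fold for *Nlgn1*, and 12.8-fold and 13.3-fold for *Gphn*. Excitatory neurons gave wider values, at 14.1-fold and 55.5-fold for *Nrxn3*, the latter from 9 UMIs in mutant replicate 2, and 23.8-fold and 15-fold for *Nlgn1*. For the other 3 genes the difference mostly ran the other way. On the log2 scale, replicate 2 over replicate 1 in astrocytes (control, mutant) was 0.17 and 0.49 for *Nrxn2*, 0.55 and 0.47 for *Nlgn2*, and 0.56 and 0.42 for *Nlgn3*.

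As a group, other genes with long introns moved the same way but by less, though their median intronic length was below that of *Nrxn3*, *Nlgn1* and *Gphn*. In astrocytes, the 1416 tested genes with the most intronic sequence (median 235149 bases) had a median log2 difference of -1.27 between the control libraries (replicate 2 over replicate 1), against 0.32 in the 1418 genes with the least (median 1050 bases). In inhibitory neurons the same medians were -1.60 and 0.52. The corresponding *Nrxn3* values were -3.51 in astrocytes and -3.62 in inhibitory neurons. *Nrxn2*, in bin 9 of 10 by intronic length, went against its bin. It was at 0.17 and 0.49 in astrocytes (control, mutant), against bin medians of -0.45 and -0.51. The share of the intronic reads in this difference was not tested, and software version and mice, with their sex, cannot be told apart from the replicate number. Levels are therefore compared below within a replicate, and changes of 2 cell types are compared within each library.

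**Figure D1:**
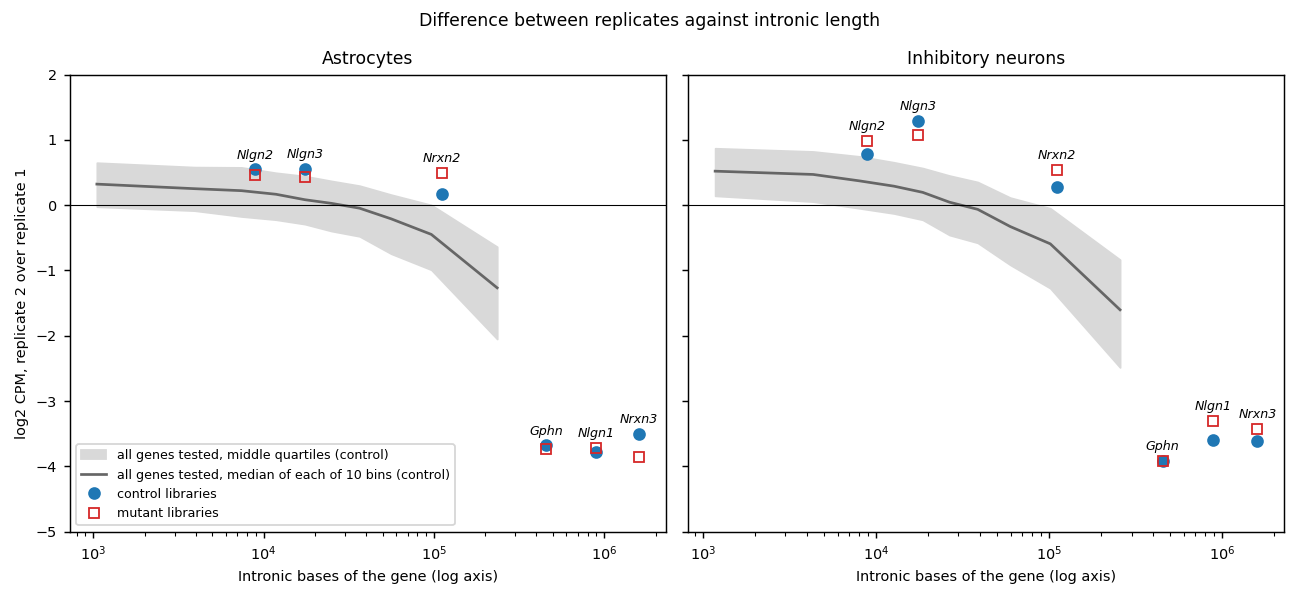
The log2 ratio of CPM, replicate 2 over replicate 1, is plotted against the intronic bases of each gene (log axis) in astrocytes and in inhibitory neurons, with circles for the control and open squares for the mutant libraries. The grey line and band are the median and the middle quartiles of all tested genes in 10 bins of intronic length. *Nrxn3*, *Nlgn1* and *Gphn* lie under the band of the longest bin in both panels, at -3.51, -3.77 and -3.68 for the control libraries in astrocytes, while *Nrxn2*, *Nlgn2* and *Nlgn3* lie above 0.

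*Nrxn3* was the most cell-type restricted of the 6 genes. Its level in inhibitory neurons was 16211 CPM in control and 14586 CPM in mutant replicate 1, and 1320 and 1354 CPM in replicate 2. The dividing cells of the inhibitory lineage followed at 11345, 10152, 880 and 828 CPM (control and mutant replicate 1, then control and mutant replicate 2, the order used from here on). Both types stood above every other type in every library, and were separate from each other within each replicate. Excitatory neurons, the other neuronal type, were at 403, 383, 28.1 and 6.54 CPM. The spread was wide, since between the highest and the lowest of the 14 types, the mean level spanned 102-fold in replicate 1 and 243-fold in replicate 2. The low end of replicate 2 rests on few molecules: all of the 6 levels of 3 UMIs or fewer, of 336 in all, were in microglia of that replicate.

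Among glia, *Nrxn3* was highest in OPCs, at 1795, 1667, 134 and 132 CPM. OPCs were separate from the next type, dividing OPCs, within both replicates. Astrocytes were lower, at 575, 617, 50.5 and 42.6 CPM. In committed oligodendrocytes, the cells that have left the OPC state, the level was 275, 313, 5.73 and 6.18 CPM, and microglia were at 700, 423, 6.35 and 4.66 CPM. The level of another type can include free RNA from inhibitory neurons, so the summed level of the 11 inhibitory markers was measured beside it as a percentage of that in inhibitory neurons. In OPCs the markers stood at 3.64, 2.96, 0.952 and 0.989%, while *Nrxn3* stood at 11.1, 11.4, 10.1 and 9.76% of its inhibitory level. *Nrxn3* in OPCs was thus above the marker share in all 4 libraries. In astrocytes the markers were at 2.54, 2.68, 2.12 and 1.92% and *Nrxn3* at 3.55, 4.23, 3.83 and 3.15%, above the marker share by less. In replicate 1, 31 control and 40 mutant astrocytes of 1 cluster held 2431 and 2682 of the 10450 and 9980 astrocyte *Nrxn3* UMIs. The part of free RNA or of inhibitory cells in the astrocyte level was not tested. In excitatory neurons the markers were at 2.33, 2.30, 1.13 and 0.584% and *Nrxn3* at 2.48, 2.62, 2.13 and 0.483%, so that *Nrxn3* lay near the marker share in replicate 1, above it in control replicate 2 and below it in mutant replicate 2. In microglia of replicate 1, the markers were at 4.18 and 4.20% and *Nrxn3* at 4.32 and 2.90%. In replicate 2 they were at 0.207 and 0.608% and *Nrxn3* at 0.481 and 0.344%, which rest on 2 *Nrxn3* UMIs in each library.

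The share of cells with a *Nrxn3* UMI was measured after every cell was thinned to 2000 UMIs, which no cell kept fell short of. In inhibitory neurons it was 99.5, 99.9, 86.4 and 87.5%, and 99.8, 100, 97.1 and 98.1% before thinning. In OPCs it was 81.6% (exact Clopper-Pearson 95% interval 78.4 to 84.6), 83.7% (81.3 to 85.9), 25.1% (20.6 to 29.9) and 26.2% (22.3 to 30.5), and 94.7, 95.3, 55.3 and 53.6% before thinning. Microglia, a cell type outside the neural lineage, gave 10.3% (6.49 to 15.3), 8.33% (3.12 to 17.3), 2.86% (0.0723 to 14.9) and 0 of 52 cells (0 to 6.85), and 33.3, 23.6, 5.71 and 3.85% before thinning. The OPC interval lay above the microglial one in each of the 4 libraries. Excitatory neurons were at 19.2, 19.9 and 0.847% and at 0 of 126 thinned cells (0 to 2.89), and at 40.3, 41.5, 8.47 and 3.97% before thinning. The intervals are for the share of thinned cells with a UMI and cover counting error only.

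Within the inhibitory neurons, *Nrxn3* differed more between clusters than between the genotypes of a replicate. The cluster led by *Prokr2*, *Sp8* and *Dlx6os1* was at 20392, 17903, 1574 and 1577 CPM, and the cluster led by *Grm8* and *Cpne4* at 19859, 18362, 1572 and 1275 CPM. A cluster led by *Galntl6* and *Lhx6* was lower, at 10570, 9017, 667 and 570 CPM, and so was one led by *Epha6*, *Cdh8* and *Rarb*, at 10329, 8906, 774 and 667 CPM. The *Lhx6* cluster, *Lhx6* being a transcription factor of interneurons from the medial ganglionic eminence, went the other way for *Nlgn1*. It held 733, 683, 89.0 and 163 CPM of *Nlgn1*, against 219 to 445 CPM in the other inhibitory clusters of control replicate 1. Its *Nrxn2* level was 245, 331, 318 and 611 CPM, but it had only 17 and 8 cells in replicate 2. These clusters were found in the same cells, and the values describe them without a test.

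**Figure D2:**
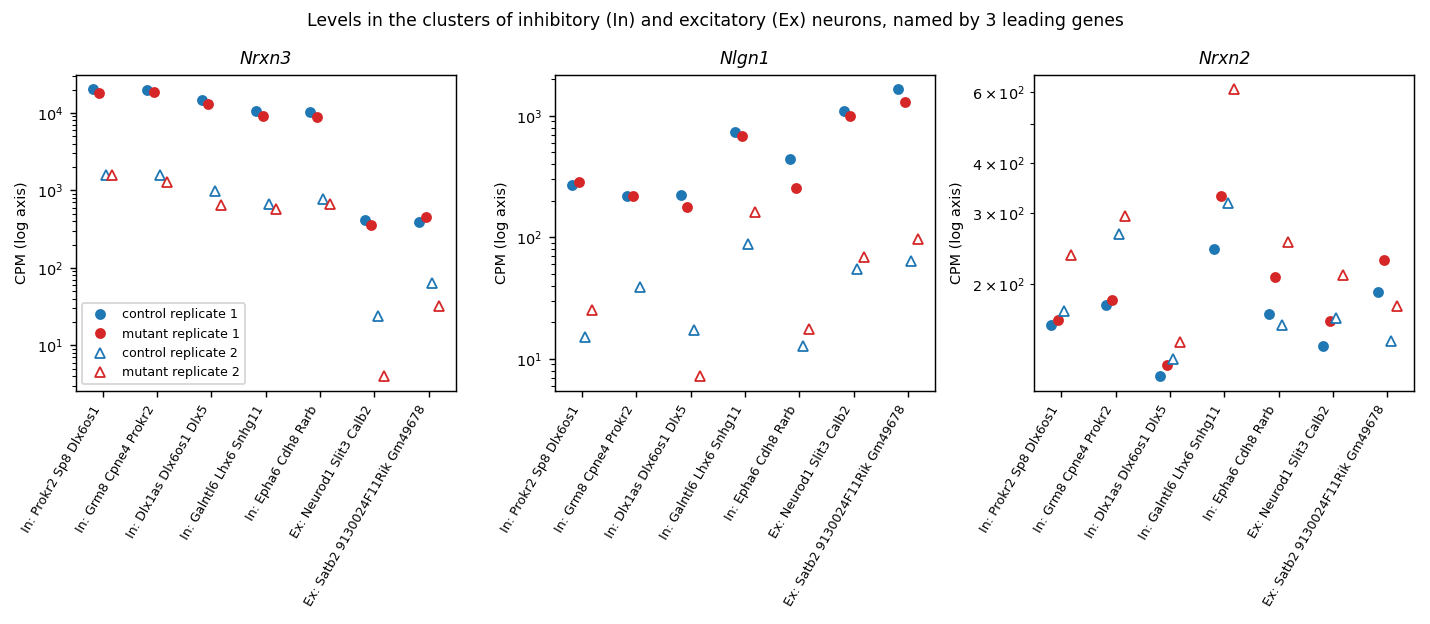
CPM (log axis) of *Nrxn3*, *Nlgn1* and *Nrxn2* in each cluster of inhibitory (In) and excitatory (Ex) neurons, named by 3 leading genes, with circles for replicate 1, open triangles for replicate 2, blue for control and red for mutant. *Nrxn3* ran from 20392 to 10329 CPM over the inhibitory clusters of control replicate 1 and was at 410 and 392 CPM in the excitatory clusters, and a point at 0 UMIs is left out.

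*Nlgn1* was highest in the OPC lineage. OPCs were at 2660, 2861, 208 and 208 CPM, dividing OPCs at 1851, 1629, 171 and 156 CPM, and astrocytes at 1327, 1405, 97.0 and 107 CPM, each separate from the next within both replicates. Cells with markers of neural stem cells, at 1398, 1287, 99.1 and 98.7 CPM, were not separate from astrocytes. Excitatory neurons were at 1344, 1074, 56.2 and 71.2 CPM. Inhibitory neurons were far lower, at 300, 253, 24.5 and 25.4 CPM, and their dividing cells lower still, at 149, 141, 6.28 and 7.16 CPM. The order of the neurons for *Nlgn1* was thus the opposite of that for *Nrxn3*. Within OPCs of replicate 1, a cluster led by *Col19a1* held 3566 and 3907 CPM and one led by *Tmem255b* and *Dll3* 1814 and 1891 CPM (control, mutant).

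*Nlgn3* and *Nlgn2* were also highest in the oligodendrocyte lineage. *Nlgn3* was at 152, 175, 256 and 240 CPM in OPCs and at 130, 153, 219 and 210 CPM in dividing OPCs, which were separate only in replicate 2. Committed oligodendrocytes came next, at 120, 112, 165 and 158 CPM, and then astrocytes, at 69.3, 76.2, 102 and 102 CPM, both separate from their neighbours in both replicates. Excitatory neurons held 30.7, 33.8, 45.1 and 46.5 CPM of *Nlgn3*, below all of these. *Nlgn2*, the neuroligin of inhibitory synapses, was at 92.9, 103, 162 and 149 CPM in OPCs and at 92.5, 107, 126 and 132 CPM in committed oligodendrocytes, which were not separate in replicate 1. Its neuronal levels lay below, at 41.3, 40.8, 61.3 and 46.5 CPM in excitatory and 32.0, 34.9, 54.7 and 68.9 CPM in inhibitory neurons. Astrocytes were at 33.4, 36.3, 48.8 and 50.1 CPM of *Nlgn2*, and no pair among these 3 types was separate in the same direction in both replicates.

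*Nrxn2* was high in OPCs, astrocytes and neurons, and lower in committed oligodendrocytes, at 96.0, 96.4, 105 and 83.9 CPM. OPCs were at 264, 296, 281 and 365 CPM and astrocytes at 238, 259, 269 and 363 CPM, with overlapping values in replicate 2. Dividing OPCs, at 189, 225, 210 and 260 CPM, and the cells with markers of neural stem cells, at 174, 192, 251 and 274 CPM, came next in mean level and were not separate from each other. Inhibitory neurons, below the stem-like cells in both replicates, were at 154, 168, 186 and 245 CPM and excitatory neurons at 163, 178, 163 and 208 CPM, which were not separate in either replicate. Microglia, at 18.6, 29.5, 15.9 and 21.0 CPM, were lowest. *Gphn* was the most even of the 6 genes, with OPCs highest at 848, 805, 99.9 and 80.1 CPM and a range over the 14 types of 2.22-fold in replicate 1 and 4.73-fold in replicate 2. Astrocytes were at 718, 713, 56.0 and 53.4 CPM, excitatory neurons at 636, 637, 55.3 and 49.4 CPM, and inhibitory neurons at 572, 514, 37.7 and 33.8 CPM. No neighbours in its order were separate in both replicates. In microglia of replicate 1, 62.3 and 59.7% of the thinned cells had a *Gphn* UMI, close to the 65.9 and 61.2% of inhibitory neurons, whereas in replicate 2 these shares were 2.86 and 0% (exact interval for the latter 0 to 6.85) against 6.79 and 8.30%.

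The order of the 14 types was much the same in both replicates for 5 of the genes and less so for *Gphn*. Spearman's rho between the replicate means was 0.956 for *Nrxn2*, 0.820 for *Nrxn3*, 0.969 for *Nlgn1*, 0.943 for *Nlgn2* and 0.956 for *Nlgn3*, and 0.380 for *Gphn*, over types that share libraries. The ranges over the types were 11.6-fold and 17.5-fold for *Nrxn2* in replicates 1 and 2, 19.1-fold and 36.1-fold for *Nlgn1*, 14.5-fold and 26.2-fold for *Nlgn2*, and 23.2-fold and 26.4-fold for *Nlgn3*. Among the 12061 genes compared, those with profiles closest to *Nrxn3* were *Dlx1*, *Gad2* and *Dlx6os1*, with Pearson's r over the 14 types of 0.905, 0.938 and 0.958 in replicate 1 and 0.915, 0.893 and 0.887 in replicate 2. All 3 are inhibitory-lineage genes and were used to name those cells. Among the 6 genes themselves, the profiles of *Nlgn1* and *Nlgn3* were the closest, with r of 0.893 and 0.912, and *Nrxn3* stood apart from *Nlgn1*, at -0.193 and 0.0469. *Grid1*, *Slc22a17* and *Rap1gap* were closest to *Nlgn3* (0.934, 0.931 and 0.956 in replicate 1), and *Slc22a17* was also among the genes closest to *Nlgn1*, with *Tnik* (0.935 and 0.936). Among those closest to *Nlgn2* were *Elovl6* and *Magee1* (0.937 and 0.928). For *Nrxn2* they were *Slc25a23*, *Epha5* and *Spock2* (0.877, 0.877 and 0.933), and for *Gphn* the likeness was weakest, with *Etnk1*, *Ntrk3* and *B230217C12Rik* at 0.819, 0.774 and 0.764.

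**Figure D3:**
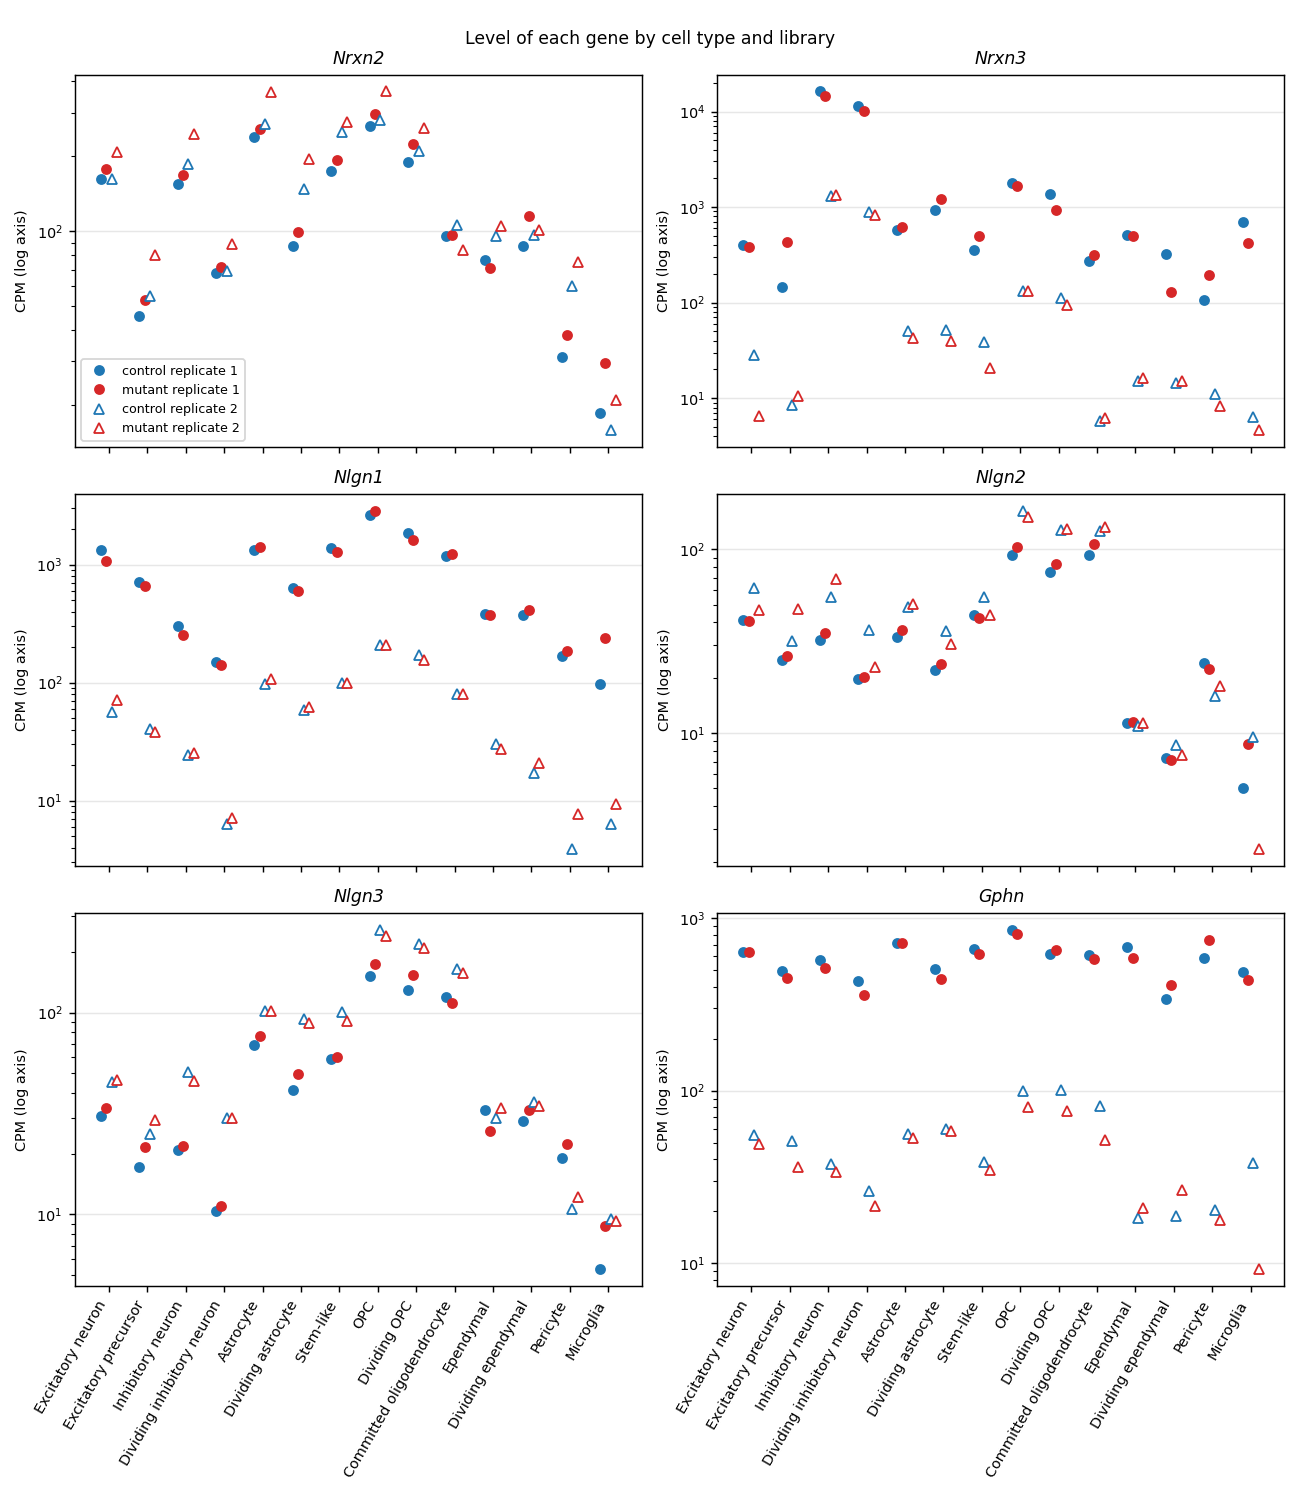
Level of each of the 6 genes in CPM (log axis) in 14 cell types, 1 point per library, with circles for replicate 1, open triangles for replicate 2, blue for control and red for mutant. *Nrxn3* peaks in inhibitory neurons, at 16211 CPM in control replicate 1, *Nlgn1*, *Nlgn2* and *Nlgn3* are high in the OPC lineage, *Gphn* is nearly even, and for *Nrxn3*, *Nlgn1* and *Gphn* the replicates form 2 bands.

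The differences between 7 pairs of cell types were then tested, each within the 4 libraries. A change is a fitted log2 difference ± SE over 4 libraries from edgeR's quasi-likelihood test, with p-values adjusted over all genes tested by the Benjamini-Hochberg method. A fit to a single replicate holds only a control and a mutant library. Its calls rest largely on a spread estimated over many genes, and only its effect sizes are given. The first comparison asks what changes between dividing cells of the inhibitory lineage and inhibitory neurons. All 6 genes were higher in the neurons, where 58.5% of the genes tested were called, 33.6% as higher and 24.8% as lower. *Nrxn2* rose by 1.28 ± 0.08 (adjusted p = 4.71e-11) and *Nlgn1* by 1.0 ± 0.09 (adjusted p = 1.77e-08). *Nlgn3* rose by 0.87 ± 0.15 (adjusted p = 8.25e-05), *Nlgn2* by 0.82 ± 0.14 (adjusted p = 4.98e-05), *Nrxn3* by 0.55 ± 0.03 (adjusted p = 2.24e-11) and *Gphn* by 0.50 ± 0.07 (adjusted p = 5.37e-06). Each gene was higher in both replicates. When these genes were put among those used for clustering, *Nlgn1* (0.016) and *Nlgn3* (0.11) were no longer called. With replicate 2 alone, *Nlgn3* (0.60) and *Gphn* (0.49) were not called.

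Excitatory and inhibitory neurons differed in opposite directions for *Nrxn3* and *Nlgn1*. *Nrxn3* was lower in excitatory neurons by a log2 change of -5.61 ± 0.24 (adjusted p = 2.15e-07), with -5.29 in replicate 1 and -6.57 in replicate 2. *Nlgn1* was higher in them by 1.89 ± 0.14 (adjusted p = 5.26e-06), with 2.12 and 1.33. *Gphn* was higher by 0.29 ± 0.09 (adjusted p = 0.0309), a call that was lost with DESeq2 (0.28), with replicate 1 alone (0.16) and without mutant replicate 1 (0.30), control replicate 2 (0.24) or mutant replicate 2 (0.24). It was also lost with no filter on low counts (0.22), a mitochondrial limit of 5% (0.27), clustering without the correction for the library (0.17) and no library block (0.21). *Nrxn2* (-0.08 ± 0.08), *Nlgn2* (0.06 ± 0.14) and *Nlgn3* (0.29 ± 0.15) did not pass, among 41.5% of all genes that did, 22.1% as higher and 19.4% as lower. *Nrxn2* was called as lower in clusters made without the correction for the library (-0.35, adjusted p = 0.0133), and *Nlgn3* as higher with replicate 1 alone (0.52). The *Nlgn2* values of 41.3 and 32.0 CPM in control replicate 1 and 61.3 and 54.7 CPM in control replicate 2 (excitatory, inhibitory) were part of a pattern that differed by replicate, with both excitatory values above both inhibitory values in replicate 1 and overlap in replicate 2. For *Gphn*, the scaffold of inhibitory synapses, the inhibitory level was the lower one in all 4 libraries.

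Against astrocytes, inhibitory neurons were higher for *Nrxn3* and lower for 4 of the other members. *Nrxn3* was higher by 4.68 ± 0.10 (adjusted p = 4.60e-09). It was the 1 member called as higher, while 4 were called as lower, among 75.4% of genes called, 38.8% as higher and 36.6% as lower. *Nlgn1* was lower by a log2 change of -2.28 ± 0.10 (adjusted p = 6.36e-08) and *Nlgn3* by -1.55 ± 0.13 (adjusted p = 4.12e-06). *Nrxn2* differed by -0.67 ± 0.07 and *Gphn* by -0.55 ± 0.10. *Nlgn2*, at 0.03 ± 0.10, did not pass, but was called as lower with replicate 1 alone (-0.23). Excitatory neurons were lower than astrocytes for 5 genes, among 68.0% called, 33.4% as higher and 34.6% as lower. These were *Nlgn3* (-1.31 ± 0.09), *Nrxn3* (-1.01 ± 0.21), *Nrxn2* (-0.79 ± 0.08), *Nlgn1* (-0.53 ± 0.12) and *Gphn* (-0.28 ± 0.08), whereas *Nlgn2*, at 0.04 ± 0.11, did not pass. The *Gphn* call was lost without scaling (-0.13), without control replicate 1 (-0.24) or mutant replicate 1 (-0.23) and with replicate 2 alone (-0.18).

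OPCs were higher than astrocytes for the neuroligins and *Nrxn3*. The change was 1.34 ± 0.07 for *Nlgn2* (adjusted p = 1.34e-07), 1.30 ± 0.07 for *Nrxn3* (adjusted p = 1.37e-07), 0.99 ± 0.06 for *Nlgn3* (adjusted p = 4.90e-07) and 0.79 ± 0.05 for *Nlgn1* (adjusted p = 1.13e-06), each with the same sign in both replicates. *Nrxn2* (-0.13 ± 0.06) and *Gphn* (0.20 ± 0.10) did not pass, among 68.1% of genes called, 34.9% as higher and 33.2% as lower. Of the genes called, 51.3% were higher in OPCs, and 66.3% were without scaling, where the median of all genes was 0.25 in place of 0.02. Changes here are relative to that scale. The 4 genes were called on both, and *Gphn* was called as well without scaling (0.43), without mutant replicate 1 (0.31) and with replicate 2 alone (0.42). *Nrxn2* was called as lower with replicate 2 alone (-0.25), with no filter on low counts (-0.19, adjusted p = 0.0159) and in clusters of resolution 2 (-0.48, adjusted p = 0.000237). In the main clusters, however, its CPM was higher in OPCs in every library. The log2 difference on library totals was 0.17 in replicate 1 and 0.04 in replicate 2, and the fitted change without scaling was 0.10.

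With commitment, 5 of the 6 genes were lower than in OPCs. *Nrxn3* differed by -2.61 ± 0.17 (adjusted p = 4.71e-09), with -2.56 in replicate 1 and -4.36 in replicate 2, *Nrxn2* by -1.44 ± 0.10 (adjusted p = 6.16e-09) and *Nlgn1* by -1.06 ± 0.08 (adjusted p = 1.43e-08). In committed oligodendrocytes of replicate 2, *Nrxn3* rested on 5 and 7 UMIs. Its level in these cells was 1.70, 2.15, 0.434 and 0.457% of that in inhibitory neurons, beside 1.19, 1.34, 0.174 and 0.173% for the inhibitory markers. The part of free RNA in the low *Nrxn3* level was not tested. *Nlgn3* (-0.35 ± 0.08, adjusted p = 0.00168) and *Gphn* (-0.28 ± 0.08, adjusted p = 0.00946) fell less. Neither was called with replicate 2 alone (-0.34 and -0.18), nor *Gphn* without control replicate 1 (-0.25) or mutant replicate 1 (-0.25). *Nlgn2*, at 0.10 ± 0.08, did not pass (with replicate 1 alone it was called as higher, 0.22), among 58.8% of genes called, 28.1% as higher and 30.7% as lower. Of the genes called, 47.8% were higher in committed oligodendrocytes, and 31.5% without scaling, where the median of all genes was -0.22 in place of -0.03.

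The comparison of astrocytes with their dividing cells depended on the replicate. Astrocytes were higher for *Nrxn2* by 1.13 ± 0.13 (adjusted p = 0.000296), for *Nlgn1* by 0.96 ± 0.12 (adjusted p = 0.000421), for *Nlgn2* by 0.58 ± 0.09 (adjusted p = 0.000896) and for *Nlgn3* by 0.40 ± 0.13 (adjusted p = 0.0264), among 58.8% of genes called, 28.7% as higher and 30.1% as lower. *Nrxn3* was lower, with a change of -0.46 ± 0.17 (adjusted p = 0.0472), that is -0.85 in replicate 1 and 0.03 in replicate 2. *Gphn*, at 0.26 ± 0.16, did not pass, but was called as higher with replicate 1 alone (0.63). In dividing astrocytes of replicate 1, the summed inhibitory markers were at 9.01 and 11.7% of their level in inhibitory neurons and *Nrxn3* at 5.80 and 8.41%, against 2.75 and 2.20% and 3.89 and 2.94% in replicate 2. Their part in the *Nrxn3* difference was not tested. With replicate 2 alone, *Nrxn3* (-0.019) and *Nlgn3* (0.12) were not called. Neither were they without control replicate 1 (-0.36 and 0.30) or mutant replicate 1 (-0.26 and 0.33), nor with the members among the clustering genes (-0.26 and 0.18). *Nrxn3* was also not called by DESeq2 (-0.40), with cells marked as doublets removed (-0.29), without scaling (-0.45), with at least 10 counts in every sum (-0.42) and without the library block (-0.79), where *Nlgn3* was not called either (0.33).

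Whether a difference between types was the same in both replicates was tested by the type by replicate term of the same fit. None of the 6 genes passed for inhibitory neurons minus their dividing cells (0.891% of all genes passed), excitatory minus inhibitory neurons (2.24%), excitatory neurons minus astrocytes (5.11%) and committed oligodendrocytes minus OPCs (0.184%), with 0, 3, 2 and 1 of them at an unadjusted p under 0.05. DESeq2 called 0 of them in these 4 comparisons too. *Nlgn3* passed for inhibitory neurons minus astrocytes (8.25%), *Gphn* for OPCs minus astrocytes (6.10%), and every member but *Nlgn2* for astrocytes minus dividing astrocytes (24.4%). *Nrxn3* in the last of these was higher in dividing cells in replicate 1, at 940 and 1227 CPM against 575 and 617 CPM in astrocytes (control, mutant), and overlapped in replicate 2, at 51.4 and 39.8 CPM against 50.5 and 42.6 CPM.

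**Figure D4:**
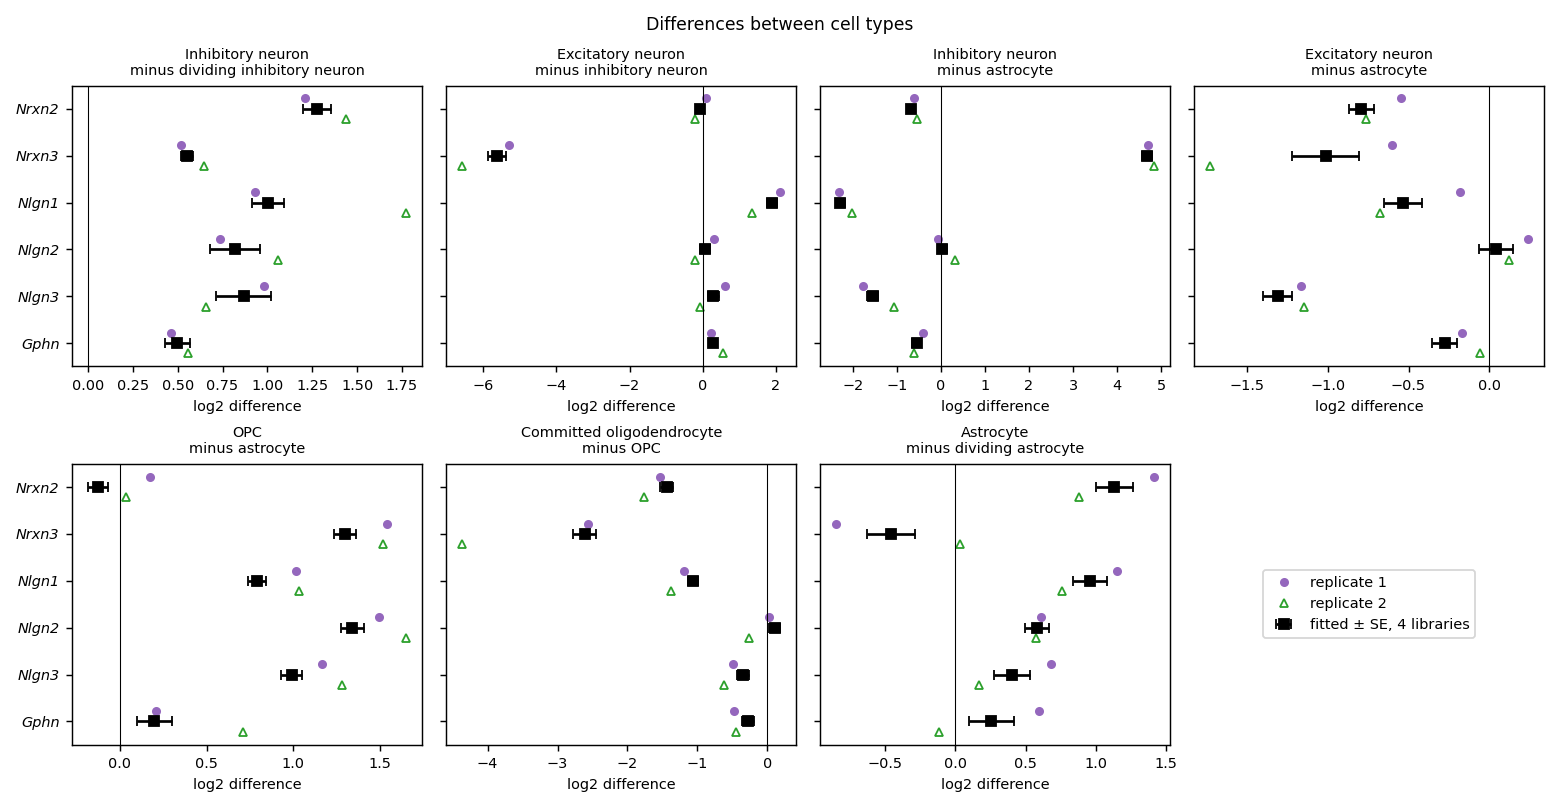
Log2 difference of each gene between 2 cell types in 7 comparisons, with black squares for the fitted value ± SE over 4 libraries, circles for replicate 1 and open triangles for replicate 2. Replicate points are ratios of CPM with 0.5 counts added and without further scaling, which sets them off from the fitted value, most for OPCs minus astrocytes. The *Nrxn3* values of -5.61 (excitatory minus inhibitory neurons) and 4.68 (inhibitory neurons minus astrocytes) are the farthest from 0.

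The partner list held 70 genes for ligands, receptors and scaffolds of the same synaptic complexes. Between dividing and postmitotic inhibitory cells, 51 of the 62 tested rose and 3 fell, where 33.6% of all genes rose and 24.8% fell. The median log2 change of the list was 0.96 against 0.11 over all genes tested. The largest rises were in the scaffold genes *Shank1* (3.08) and *Dlg2* (3.02), and the largest falls in the adhesion genes *Slitrk2* (-1.21) and *Slitrk5* (-0.82). The *Slitrk5* call was lost with DESeq2 (-0.77), without control replicate 1 (-0.52) and with replicate 2 alone (-0.51). Excitatory neurons against inhibitory neurons had 34 higher and 19 lower of 65, where 41.5% of all genes were called, 22.1% as higher and 19.4% as lower. The median was 0.34 against -0.0038 over all genes, and neurexin ligands stood on both sides. *Nxph4* (5.08) and the netrin-G gene *Ntng2* (3.72) were higher, *Nxph1* (-3.44) and *Flrt2* (-3.35) lower. The sizes of the first 2 rest on values near 0. *Nxph4* in inhibitory neurons was at 0.441, 0.885, 0.628 and 0.604 CPM. *Ntng2* in replicate 2 was at 2.55 and 2.18 CPM in excitatory and at 0 in inhibitory neurons. *Nxph1* and *Nxph4* encode neurexophilins, secreted ligands of alpha-neurexins.

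Against astrocytes, 35 partner genes were higher and 18 lower of 66 in inhibitory neurons, and 37 higher and 19 lower of 68 in excitatory neurons. Of all genes, 75.4% were called in inhibitory neurons, 38.8% as higher and 36.6% as lower. In excitatory neurons 68.0% were called, 33.4% as higher and 34.6% as lower. The medians of the list were 0.55 against 0.061 over all genes in inhibitory and 0.67 against -0.0048 in excitatory neurons. In inhibitory neurons the highest were *Dlgap2* (5.70) and *Iqsec3* (5.27), a gephyrin-binding exchange factor, and *Slitrk2* (-3.68) was among the lowest. In excitatory neurons the highest were *Nxph4* (6.74) and *Clstn2* (6.06), and *Slitrk2* (-2.67) was again among the lowest. The sizes for *Nxph4*, *Dlgap2* and *Iqsec3* rest on astrocyte values near 0. These were 0.330, 0, 0.253 and 0.154 CPM for *Nxph4* and 2.70, 1.54, 0.168 and 0 CPM for *Dlgap2*. For *Iqsec3* they were 0.770, 0.309, 0.421 and 0.308 CPM. In OPCs against astrocytes, 45 were higher and 15 lower of 65, with a median of 0.97 against 0.02 over all genes. Of all genes, 34.9% were called as higher and 33.2% as lower in OPCs. *Tenm1* (5.32) and *Lrrtm4* (5.24), a postsynaptic receptor of neurexins, were highest there, and *Tenm4* (-2.29) and *Tenm3* (-1.90) lowest. The *Tenm1* size rests on astrocyte values near 0, at 2.70, 2.04, 0.758 and 0.0770 CPM. Committed oligodendrocytes against OPCs had 14 higher and 40 lower of 64, where 28.1% of all genes were called as higher and 30.7% as lower. The median was -0.74 against -0.03. Even so, *Cbln2*, a cerebellin, was higher by 6.93 and *Igsf9b*, an adhesion gene of inhibitory synapses, by 2.15, while *Ntng1* (-3.28) and *Tenm1* (-3.22) were lowest. The *Cbln2* size rests on OPC values near 0, at 0.822, 0.531, 0 and 2.25 CPM. In astrocytes against their dividing cells, 31 were higher and 6 lower of 63, where 28.7% of all genes were called as higher and 30.1% as lower. The median was 0.34 against 0.015. *Tenm4* (1.61) and *Flrt1* (1.38) led, with *Dlgap3* (-2.73) and *Lin7a* (-1.82) at the other end. With replicate 2 alone *Lin7a* (-0.73) was not called. The list was described by its counts and medians and was not tested as a set.

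The study asked what the heterozygous mutation of *Chd8* changes in these cells. None of the 6 genes passed the test between mutant and control in any of the 14 types, in 81 tests that could be made. The background was 0% of the 7957 to 14853 genes tested per type, by edgeR's quasi-likelihood test, while 248 of 163113 tests (0.152%) had an unadjusted p under 0.05, 0 of them for these 6 genes, and DESeq2 called 1 gene. In edgeR's fit with genotype alone, the lowest unadjusted p of a member was 0.271, for *Nrxn2* in excitatory precursors, and the lowest adjusted p was 0.9997. For *Nrxn3*, *Nlgn1* and *Gphn* the errors were wide, since the spread within a genotype held the difference between replicates. The share of 0.152% lies below what a threshold of 0.05 gives where nothing differs, so the absence of calls says little. In inhibitory neurons the *Nrxn3* change was -0.16 ± 1.57, against 0.26 ± 0.29 for *Nrxn2*. With the replicate number as a block, the changes there were -0.08 ± 0.14 for *Nrxn3*, -0.17 ± 0.15 for *Gphn* and 0.23 ± 0.14 for *Nrxn2*. The lowest unadjusted p of a member was then 1.3e-05 (adjusted p = 0.0729), for *Nrxn3* in excitatory precursors, by edgeR's quasi-likelihood test. Without passing adjustment, *Nrxn3* was also lower at an unadjusted p under 0.05 in microglia (-0.74), dividing OPCs (-0.41), excitatory neurons (-0.44) and dividing ependymal cells (-1.09). *Nlgn1* was higher so in microglia (1.21). Among all genes, 242 of 7957 had such a p in microglia and 350 of 11461 in dividing OPCs. In excitatory neurons 529 of 11473 did, and in dividing ependymal cells 256 of 9598. The values within each replicate are given beside the fitted changes, as a description.

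*Nrxn2* was higher in the mutant in both replicates in 12 of the 14 types, all but committed oligodendrocytes and ependymal cells. Over all types, 24.9% of the tests of all genes were higher in both replicates, 21.4 to 28.8% per type, but the 14 types come from the same 4 libraries and are not independent. In inhibitory neurons *Nrxn2* went from 154 to 168 CPM in replicate 1 and from 186 to 245 CPM in replicate 2, and the 2 mutant values did not both lie above both control values. In OPCs it went from 264 to 296 and from 281 to 365 CPM, and in excitatory neurons from 163 to 178 and from 163 to 208 CPM, without overlap of the groups. Such separation occurred in 6 of the 14 types, against 8.59% of the tests of all genes (6.08 to 14.3% per type) with both mutant libraries above both control libraries. The median over the types of the log2 ratio of mutant to control was 0.16 in replicate 1 and 0.35 in replicate 2. The fitted changes ran from -0.13 to 0.50 and none passed.

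*Gphn* was lower in the mutant in both replicates in 9 of the 14 types, against 23.9% of the tests of all genes (20.9 to 30.4% per type). In these 9 types the log2 ratio of mutant to control ran from -0.26 to -0.0097 in replicate 1 and from -1.92 to -0.040 in replicate 2. In inhibitory neurons *Gphn* went from 572 to 514 CPM in replicate 1 and from 37.7 to 33.8 CPM in replicate 2. The widest ratios were in replicate 2, with -1.92 in microglia (38.1 to 9.32 CPM, on 12 and 4 UMIs), -0.64 in committed oligodendrocytes and -0.50 in excitatory precursors. *Nrxn3* was higher in both replicates in 2 types and lower in 5, *Nlgn1* higher in 5 and lower in 4. *Nlgn2* was higher in 6 and lower in 2 of 12, and *Nlgn3* higher in 4 and lower in 1 of 13. In inhibitory neurons the *Nrxn3* ratio of mutant to control was -0.15 in replicate 1 and 0.04 in replicate 2 on the log2 scale, so the replicates had opposite signs. In excitatory precursors, *Nrxn3* went from 144 to 433 CPM in replicate 1 and from 8.57 to 10.6 CPM in replicate 2, a fitted change of 1.53 ± 1.83. The replicate 2 values rest on 14 and 18 UMIs. Before thinning, 32.9, 39.2, 8.62 and 5.69% of these cells had a *Nrxn3* UMI. Their summed inhibitory markers were at 2.44, 3.46, 1.33 and 1.56% of the inhibitory level and *Nrxn3* at 0.891, 2.97, 0.649 and 0.784%. The part of free RNA was not tested. The difference of the genotype effect between excitatory and inhibitory neurons, or between OPCs and astrocytes, was called for 0 genes by edgeR's quasi-likelihood test and by DESeq2, with 173 and 172 genes at an unadjusted p under 0.05. Partner genes called between genotypes numbered 0 of those tested in each type. These counts rest on the fit with genotype alone. With the replicate number as a block, 82 genes were called over the 14 types, with 0 of the 6 members and 3 partner genes among them, and the difference of the genotype effect was called for 42 genes between excitatory and inhibitory neurons and 23 between OPCs and astrocytes. The 3 partner genes, named after their values were seen, were *Nxph1* (1.47 ± 0.30, adjusted p = 0.000738) and *Dlg2* (-1.0 ± 0.21, adjusted p = 0.00225) in excitatory neurons and *Lrrc4c* (2.57 ± 0.33, adjusted p = 0.0473) in microglia.

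**Figure D5:**
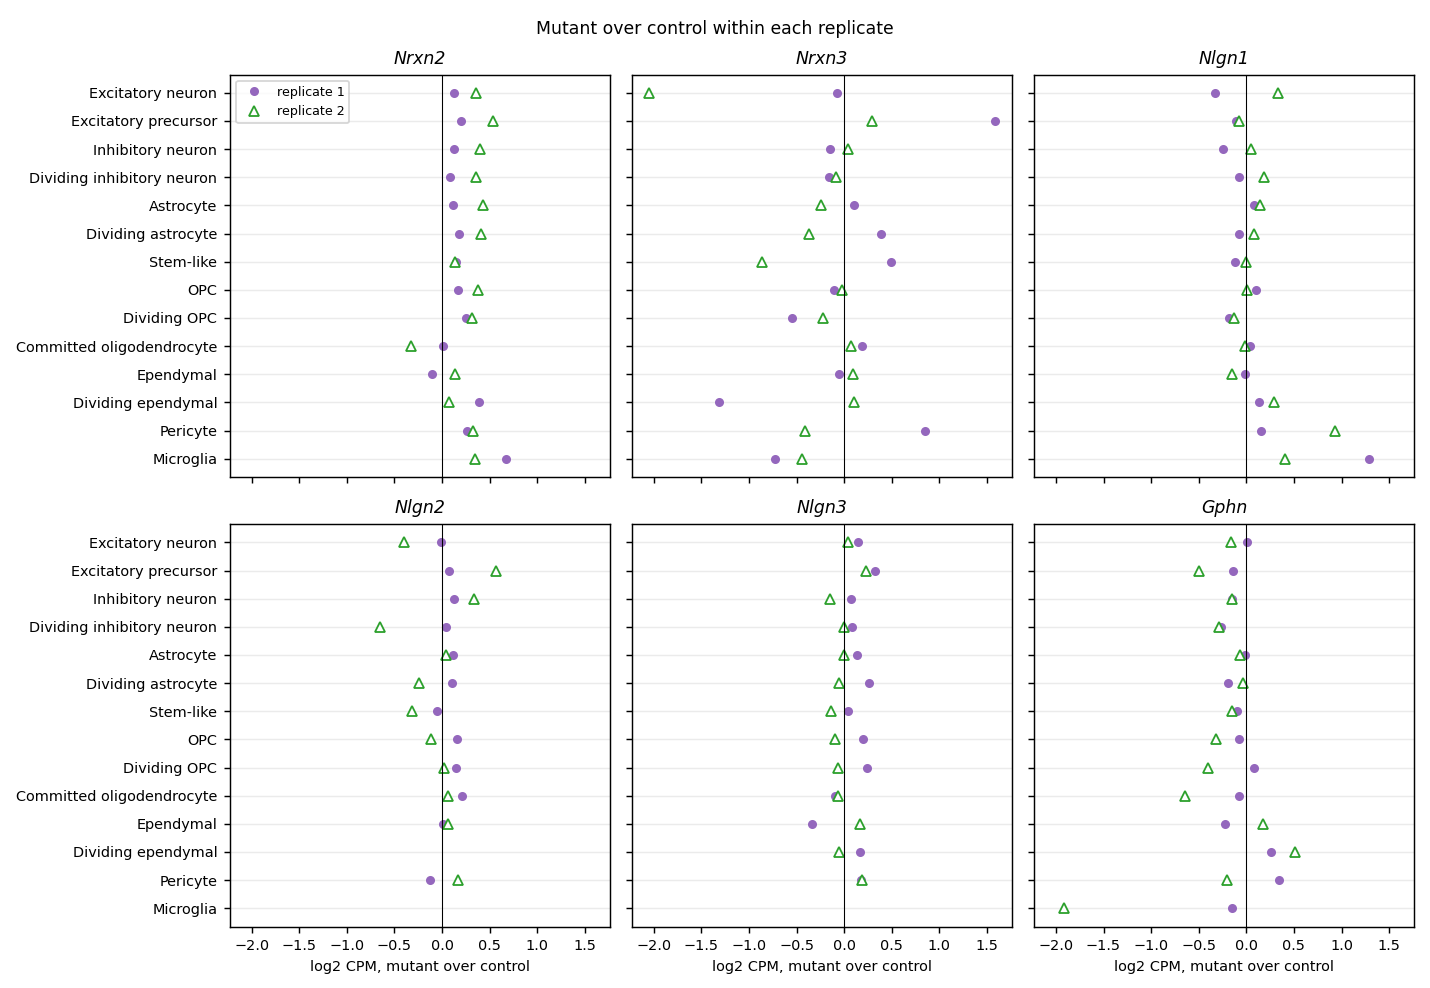
Log2 ratio of CPM, mutant over control, within replicate 1 (circles) and replicate 2 (open triangles) for each gene in 14 cell types. *Nrxn2* lies to the right of 0 in both replicates in 12 types, *Gphn* to the left in both in 9, and the other genes lie on both sides.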

How the data were processed

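Single-cell RNA sequencing covered 4 libraries, grouped by the genotype in the labels. The authors mapped reads to mm10 with Cell Ranger (3.0 in the submitters' processing notes, 7.0.0 or 5.0.1 in the headers of the matrices) and deposited matrices of raw UMI counts, 46274374 to 79328841 per library. Whether introns were counted is not given in the sources used here. The cells kept had 2000 to 40000 UMIs, 1000 genes or more and a mitochondrial share of up to 10%. They were log-normalized, scaled within each library over 2000 variable genes without the 6 members and the partner list, and clustered with scanpy 1.11.5 (30 components, 15 neighbours, resolution 1). Clusters were named from listed markers, at least 3 of them detected in 10% of the cells, by a rule set after the cells were examined. Clusters named from committed or mature oligodendrocyte markers were joined as committed oligodendrocytes, which took the place of oligodendrocytes in the planned comparison. Scrublet marked 0.202 to 2.79% of cells per library, which were kept. In control replicate 2 this is too few for the caller to have worked.

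Counts were summed per type and library (at least 20 cells in every library), passed through filterByExpr and TMM scaling in edgeR 4.0.16 (R 4.3.3), and given to its quasi-likelihood test, with genotype alone or, between types, with the library as a block, and Benjamini-Hochberg adjustment at 0.05. Within-replicate ratios used CPM with 0.5 counts added. 2 types were called separate in a replicate where their 2 libraries did not overlap. Gene structures came from GENCODE vM21, matched for 99.6% of genes. The partner genes named are the 2 with the largest change in each direction among those called with the same sign in both replicates. Likeness of profiles was Pearson's r of log2(CPM + 1) over genes of at least 20 CPM in 1 type, as the lower of the 2 replicates. Clusters and single levels named beside these were chosen after their values were seen. Members, lists and comparisons were chosen with earlier results of these data known. On simulated counts with changed genes, the genotype test recovered 53.4% of 193 in excitatory neurons with 1 false call, and the test of inhibitory neurons minus astrocytes 85.8% of 197 with 3. The simulated libraries shared a common profile and held no difference between replicates. The recovery of the genotype test therefore does not carry over to the counts measured here. Alternatives were DESeq2 1.42.0, other scaling, filters, clusterings and blocks, and each library left out. Some items are not reported here.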

Additional observations from a re-analysis of the deposited data

Results flagged for a closer look

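Differences between cell types that were unequal in the 2 replicates, by edgeR's quasi-likelihood test of the type by replicate term, are given as the log2 difference in replicate 2 minus that in replicate 1, ± SE, with the adjusted p, beside the difference within each replicate on library totals. For inhibitory neurons minus astrocytes, *Nlgn3* differed by 0.56 ± 0.16 (adjusted p = 0.0387), from -1.76 in replicate 1 to -1.07 in replicate 2, where 8.25% of all genes passed, and DESeq2 called none of the 6 genes. For OPCs minus astrocytes, *Gphn* differed by 0.50 ± 0.10 (adjusted p = 0.00246), from 0.21 to 0.71, where 6.10% passed. For astrocytes minus dividing astrocytes, 24.4% of all genes passed, with 5 of the 6 members among them. *Nrxn3* differed by 0.80 ± 0.10 (adjusted p = 4.49e-07), from -0.85 to 0.03. *Gphn* differed by -0.79 ± 0.09 (adjusted p = 8.82e-08), from 0.60 to -0.11. *Nrxn2* differed by -0.62 ± 0.08 (adjusted p = 2.75e-07), from 1.42 to 0.88, *Nlgn3* by -0.60 ± 0.10 (adjusted p = 4.58e-05), from 0.68 to 0.17, and *Nlgn1* by -0.48 ± 0.08 (adjusted p = 5.61e-05), from 1.15 to 0.76. In that comparison the astrocytes of the replicates lay mostly in different clusters, and 1 astrocyte cluster, led by *Inka2* and *Tlcd1*, held *Nrxn3* at 5006 and 4413 CPM in the 31 control and 40 mutant cells of replicate 1, against 50.6 and 45.0 CPM in the 669 and 712 cells of replicate 2. The OPCs too lay in different clusters, with 353 of 637 control and 495 of 994 mutant OPCs of replicate 1 in the cluster led by *Col19a1*, against 8 of 351 and 4 of 461 in replicate 2. The part of the replicate number, the clusters and the inhibitory markers in these differences was not tested.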

How the results depend on the processing

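Of the log2 differences of the 6 genes between cell types, 551 values kept their direction and call under the alternatives, 55 kept the direction but were no longer called, 10 became called and 22 changed sign, and of the genotype differences 278 kept their direction and 57 changed sign. Of the partner genes named, 395 values kept their call and 11 lost it. 14 shares of cells moved when cells were not thinned. Unless a value bears on it, the cause was not tested. Same-numbered libraries share a replicate number in the labels, with which the software version and the *Xist* level went. With 2 pairs, the deviations of same-numbered libraries from their genotype means correlated at 0.626 to 0.886 over the types. With the replicate number as a block, 82 genes, 3 partner genes and 0 of the 6 genes were called between genotypes. The lowest adjusted p of a member was then 0.0729, for *Nrxn3* in excitatory precursors (1.37). In the same fit *Nrxn3* in astrocytes changed sign (-0.070). Between genotypes, DESeq2 called 1 gene and no filter on low counts 86 genes, with 3 partner genes. The difference of the genotype effect between types was called for 42 genes (excitatory minus inhibitory neurons) and 23 genes (OPCs minus astrocytes) with the replicate block by type.

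Between genotypes, the values that changed sign were not called in any setting. With cells marked by Scrublet removed they were *Nlgn3* (-0.16) and *Gphn* (0.0096) in excitatory neurons, *Nrxn3* in OPCs (0.057) and *Gphn* in astrocytes (0.0051). With a mitochondrial limit of 5% they were *Nlgn3* (-0.20) and *Gphn* (0.013) in excitatory neurons, *Nlgn3* in inhibitory neurons (0.026) and OPCs (-0.022), and *Nlgn2* (-0.011) and *Gphn* (0.0083) in astrocytes. *Gphn* in astrocytes also changed with at least 10 counts in every sum (0.0033), with the members among the clustering genes (0.00079; in excitatory neurons 0.00097), with no correction for the library (0.0087; *Nlgn3* in OPCs -0.0023) and at resolution 2 (0.0019; in OPCs 0.031). Leaving out 1 library mixes the replicates. The ranges were then -5.08 to 2.81 for *Nrxn3*, -3.34 to 3.37 for *Nlgn1*, -0.49 to 0.061 for *Nlgn2*, -0.17 to 0.36 for *Nlgn3* and -2.85 to 2.65 for *Gphn* in excitatory neurons. In inhibitory neurons they were -2.82 to 2.67, -2.81 to 2.59, -0.25 to 0.65, -0.64 to 0.64 and -3.30 to 2.94 in the same order of genes. In OPCs they were -3.00 to 2.84, -2.92 to 2.98, -0.34 to 0.37, -0.28 to 0.38 and -2.70 to 2.24. In astrocytes they were -2.93 to 2.73, -2.79 to 2.99, -0.18 to 0.36, -0.20 to 0.35 and -2.91 to 2.80. 0 to 2 genes were then called.

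Between types, *Nlgn2* for inhibitory neurons minus astrocytes changed sign with at least 10 counts (-0.11), members among the clustering genes (-0.019), 5% mitochondrial counts (-0.064), no filter (-0.13), replicate 1 alone (-0.23, called) and a library left out (-0.14 to 0.074). For excitatory neurons minus astrocytes it did so with at least 10 counts (-0.026), no filter (-0.10), replicate 2 alone (-0.0062) and a library left out (-0.017 to 0.10). For excitatory minus inhibitory neurons it did so without the library block (-0.015), with replicate 2 alone (-0.20; *Nlgn3* -0.068) and with a library left out (-0.057 to 0.23), and *Nrxn2* with replicate 1 alone (0.0055). For committed oligodendrocytes minus OPCs, *Nlgn2* changed sign with at least 10 counts (-0.054) and no scaling (-0.10). For OPCs minus astrocytes, *Nrxn2* did so with no scaling (0.10) and *Gphn* with replicate 1 alone (-0.043) and at resolution 2 (-0.032), and for astrocytes minus dividing astrocytes *Gphn* with replicate 2 alone (-0.16).

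Without the library block, 2434 genes, 1 member and 15 partner genes were called for inhibitory neurons minus their dividing cells, 1263, 0 and 13 for excitatory minus inhibitory neurons, 5471, 2 and 33 for OPCs minus astrocytes, 3487, 1 and 24 for committed oligodendrocytes minus OPCs, and 3564, 1 and 8 for astrocytes minus dividing astrocytes. It called 3 members and 34 partner genes for inhibitory neurons, and 2 and 36 for excitatory neurons, minus astrocytes. With at least 10 counts, fewer genes were tested, and 4225 genes and 27 partner genes were called for inhibitory neurons minus their dividing cells, 7061 genes for inhibitory neurons minus astrocytes and 4670 for committed oligodendrocytes minus OPCs. Replicate 2 alone gave 3466 genes and 34 partner genes, 3064 genes for excitatory minus inhibitory neurons, 4388 genes and 3 members for committed oligodendrocytes minus OPCs, and 3 members for astrocytes minus dividing astrocytes, where members among the clustering genes gave 3 too and a library left out 3 to 5. A library left out gave 2895 to 4764 genes for excitatory minus inhibitory neurons. DESeq2 called fewer genes for the type by replicate term, namely 16 of inhibitory neurons minus their dividing cells (edgeR 101), 72 of excitatory minus inhibitory neurons (252), 364 of inhibitory neurons minus astrocytes (1180, with 0 members in place of 1), 270 of excitatory neurons minus astrocytes (711), 282 of OPCs minus astrocytes (878), 14 of committed oligodendrocytes minus OPCs (22) and 1329 of astrocytes minus dividing astrocytes (3334). Depth limits the lowest levels: those of microglia in replicate 2 rest on 35 and 52 cells.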
